A study of Mus musculus with 30 samples.

Results

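The comparison described here set Gfap+ astrocytes of PS2APP mice against Gfap+ astrocytes of non-transgenic (non-Tg) mice. The libraries were taken by their source labels, 5 from PS2APP and 5 from non-Tg animals, and made up 10 of the 30 libraries of the study. The other 20 held Cd11b+ myeloid cells and NeuN+ neurons of both genotypes, 5 libraries a group, and serve here to show where a transcript could have come from. All animals were 11.5 months old, and RNA was extracted from pellets of sorted cells, of which the astrocytes gave the least. PS2APP mice carry 2 transgenes, a mutant human presenilin 2 and a mutant human amyloid precursor protein, and form amyloid plaques as they age. As background, the presenilin transgene of this line is driven by a prion protein promoter and the precursor protein transgene by a Thy1 promoter, both mainly active in neurons. The labels give no sex, batch or brain region, and do not say which libraries shared an animal or whether animals were pooled. The p-values therefore measure the spread between these libraries.

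Astrocytes take up glutamate and potassium, move water through their endfeet, couple through gap junctions and supply neurons with cholesterol. Next to amyloid plaques they become reactive: they enlarge, build more of the intermediate filaments Gfap and vimentin, and switch on complement, antigen presentation and acute-phase genes, in part through JAK-STAT3 and interferon signalling. Microglia, the resident macrophages of the brain, gather tightly around the same plaques, and a sort for Gfap can take fragments of them along.

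Library totals lay between 2852260 and 6581186 counts, and a count of 3 equalled 0.456 to 1.05 CPM, the count scaled to a common library size. The 13 astrocyte markers were each detected in all 10 libraries and came to 12350 ± 489 CPM in PS2APP and 14069 ± 2827 CPM in non-Tg libraries (SD, n = 5 each, exact permutation, two-sided, p = 0.286). On the first principal component, which held 35.1% of the variance, PS2APP replicate 3 stood apart at 111, with the other libraries between -43.3 and 45.4. PS2APP replicate 2 stood apart on the second (17.2% of the variance, 83.8 against -46.9 to 6.45). Without both, which leaves 3 PS2APP libraries, 10 of the 26 called genes described below kept their call and 16 lost it. The 10 were C4b, C4a, ID102643089, Aspg, Thy1, Arhgap6, ID102642598, Abi3, Csf3r and Csf1r.

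Complement C4, the reactive astrocyte gene Aspg and the STAT3 target Sbno2 were higher in PS2APP than in non-Tg astrocyte libraries. So were genes of interferon and MHC class I control and mitochondrially encoded transcripts. No gene was called lower. Of 14043 genes that edgeR's quasi-likelihood model covered, 26 (0.185%) had an adjusted p under 0.05, and all 26 were higher in PS2APP, so that 0.00% were called lower. At an unadjusted p under 0.05 there were 2415 genes (17.2%), 1432 higher (10.2%) and 983 lower (7.00%), and 50.6% of all genes had a log2 fold change above 0. The count of calls depended on the tool: DESeq2 called 2.33% of the genes, 231 higher (1.64%) and 96 lower (0.684%), limma with sample weights called 1.95%, 203 higher (1.45%) and 71 lower (0.506%), and each included all 26. It also depended on single libraries. Without non-Tg replicate 1 there were 125 calls (0.876% of the genes then tested, 104 higher, 0.729%, and 21 lower, 0.147%), without non-Tg replicate 2 there were 8, without PS2APP replicate 2 there were 12, without PS2APP replicate 1 there were 44, and without non-Tg replicate 5 there were 17. Of the 26 genes, 6 were called in each of the 10 fits that left out 1 library.

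**Figure D1:**
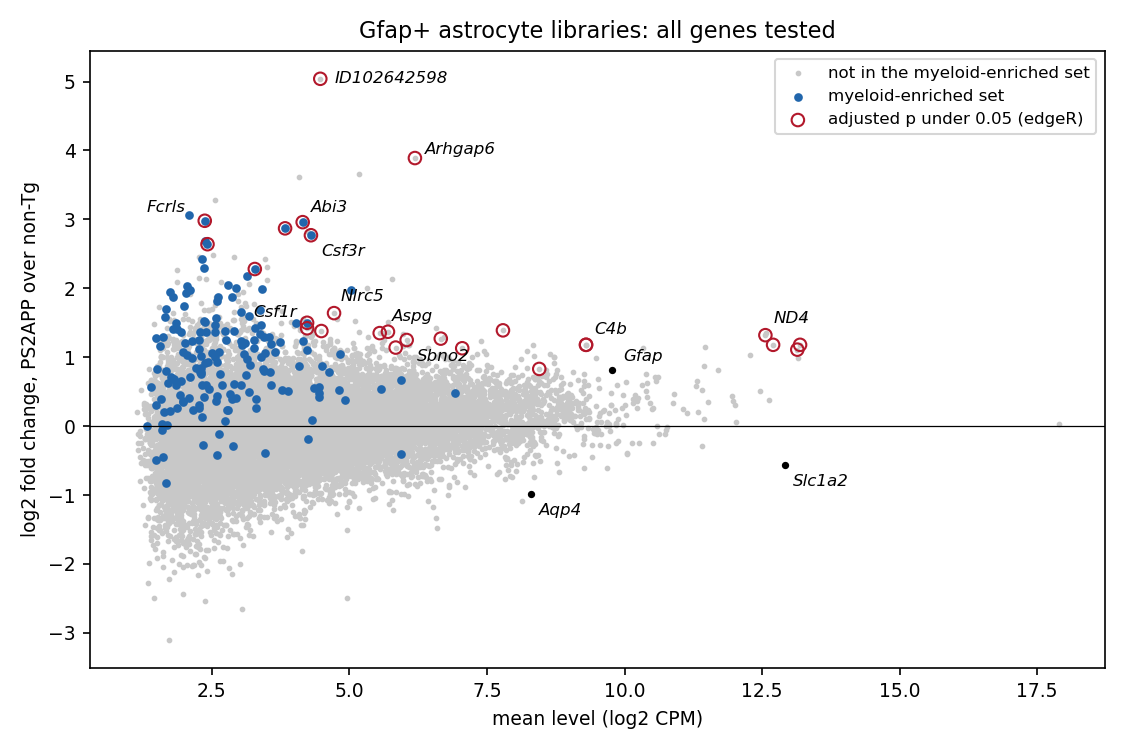
Log2 fold change of PS2APP over non-Tg (y axis) against mean level in log2 CPM (x axis) for the 14043 genes tested in the 10 astrocyte libraries. Blue points are the 164 tested genes of the myeloid-enriched set, red rings the 26 genes past an adjusted p of 0.05, and black points 3 astrocyte genes that did not pass; all red rings lie above 0, and most blue points do.

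Before the genes are described, those that could come from myeloid cells were set apart: the identifiers at least 20 times higher in non-Tg Cd11b than in non-Tg Gfap libraries. Of the 26 calls, 7 were in that set and 19 outside it. In non-Tg mice, 9 of the 19 were higher in astrocyte than in myeloid libraries, and 10 were 1 to 20 times higher in myeloid libraries, 4 of these mitochondrially encoded. The part of myeloid RNA in these 10 calls was not tested. The myeloid-enriched set is taken up after the astrocyte genes.

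Complement C4 had the smallest p outside the myeloid-enriched set. C4b encodes a component of the classical complement pathway and is a hallmark of reactive astrocytes in amyloid models (chromosome 17, 34728139 to 34743902, GRCm38.p6). It stood at 712, 1035, 1135, 805 and 699 CPM in PS2APP replicates 1 to 5, and at 407, 425, 379, 325 and 393 CPM in non-Tg replicates 1 to 5. The lowest PS2APP library lay above the highest non-Tg library. The log2 change was 1.18 ± 0.17 (SE, adjusted p = 0.005 in edgeR), and the gene was called in each of the 10 fits that left out 1 library. The C4b level of non-Tg astrocytes was 2762% of that of non-Tg myeloid cells. C4a, its neighbour on the chromosome (34809092 to 34823460), went from 122 ± 7.97 to 321 ± 113 CPM (SD, n = 5 each). Its log2 change was 1.39 ± 0.20 (edgeR adjusted p = 0.005), also called in all 10 such fits.

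Both genes share long stretches. In the longest annotated transcripts, 35.2% of the 50-base words of C4b also occur in C4a and 35.2% of those of C4a occur in C4b, and per the file headers only uniquely aligning reads were counted, so the split of reads between the 2 genes is uncertain. A further identifier without a symbol, ID102643089, chosen after its values were seen, differed from C4b by 1 to 14 counts in each library, with C4b between 1419 and 4506 counts. Its counts thus nearly repeat those of C4b, and it is not described as a separate signal.

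Aspg, an asparaginase that marks reactive astrocytes, was at 50.1, 56.5, 93.3, 75.3 and 58.9 CPM in the PS2APP libraries and at 28.5, 24.8, 25.6, 24.0 and 27.9 CPM in the non-Tg libraries. The groups did not overlap, and the non-Tg libraries lay close together. The log2 change was 1.35 ± 0.21 (SE, adjusted p = 0.0071 in edgeR), called in all 10 fits that left out 1 library. Gfap itself, the filament gene whose protein was sorted for, was at 924, 1063, 1387, 970 and 1254 CPM in PS2APP and at 669, 620, 808, 384 and 692 CPM in non-Tg libraries. Here too each PS2APP library lay above each non-Tg library. Its log2 change of 0.82 ± 0.19 had an edgeR adjusted p of 0.078 and passed in DESeq2 (adjusted p = 0.0077) and in limma (adjusted p = 0.03). Groups without overlap were found for 420 genes (2.99%), 177 of them higher in PS2APP (1.26%).

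**Figure D2:**
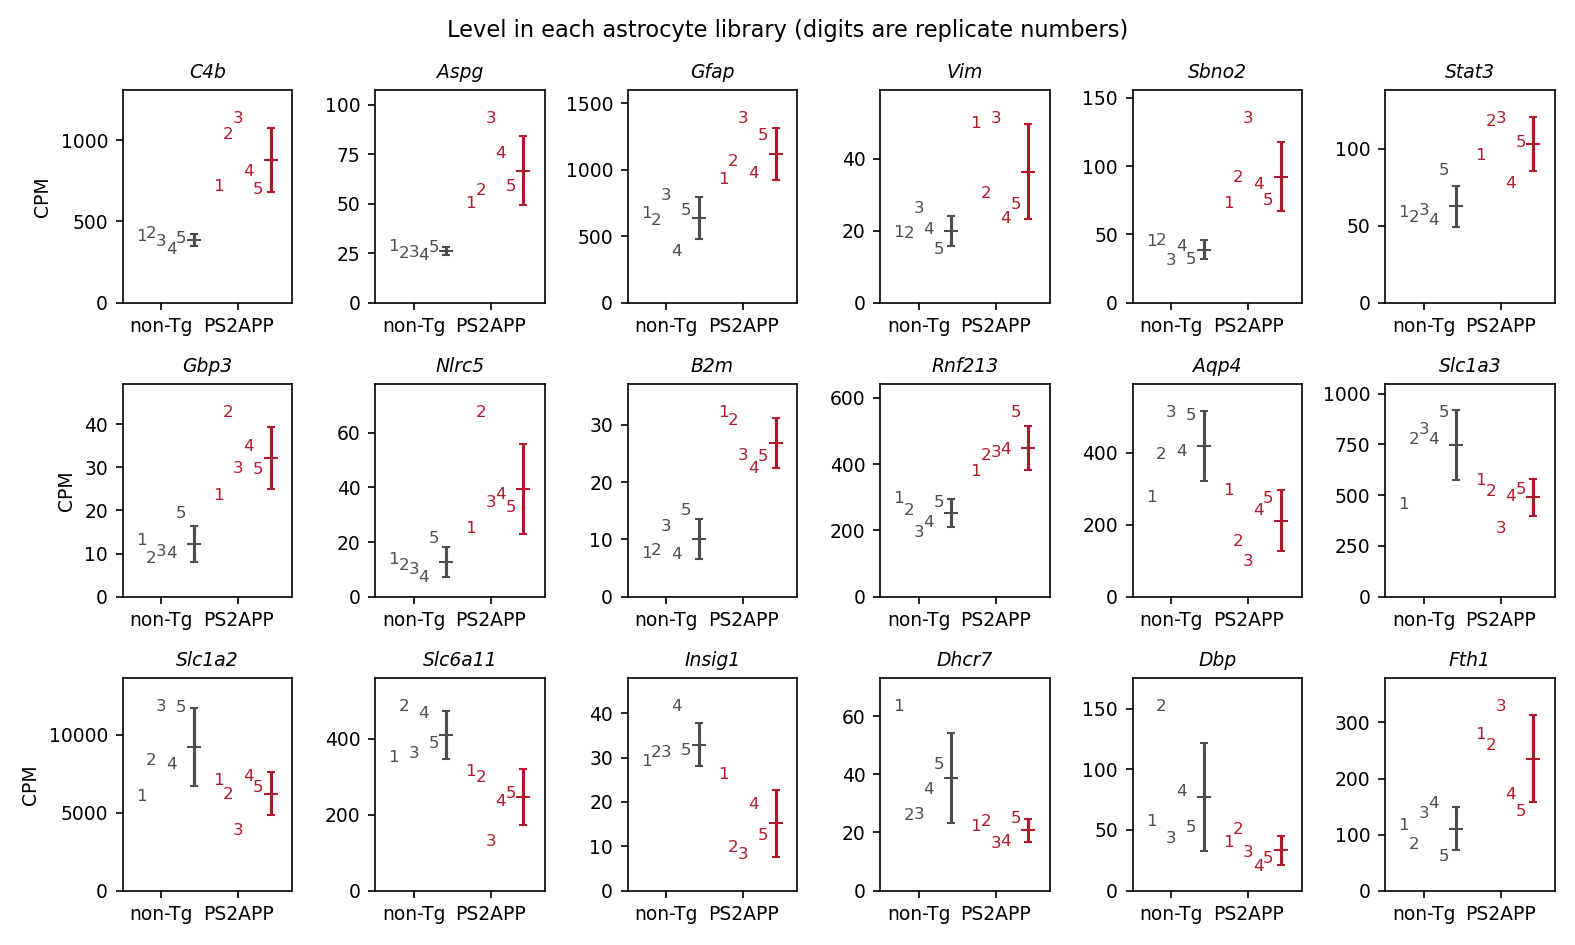
Level in CPM (y axis, from 0) of 18 genes in each astrocyte library, non-Tg in grey and PS2APP in red; digits are replicate numbers and bars the mean ± SD of 5 libraries. C4b, Aspg, Gfap, Sbno2, Gbp3, Nlrc5, B2m and Rnf213 do not overlap between genotypes and are higher in PS2APP. Slc6a11, Insig1 and Dhcr7 do not overlap and are lower in PS2APP. Over all genes tested, 1.26% were higher and 1.73% lower without overlap. Non-Tg replicate 1 lies near the PS2APP libraries for Aqp4, Slc1a3 and Slc1a2.

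Of the 14 genes of a pan-reactive astrocyte list, 9 were tested and Aspg alone was called. The 9 had a median log2 change of 0.70, against 0.0066 over all genes tested, and 5 of them were higher at an unadjusted p under 0.05 and none lower. Over all genes tested, 0.185% were called, 10.2% were higher and 7.00% lower at that unadjusted p in edgeR, and 50.6% had positive values. Vim, which encodes vimentin, went from 20.0 ± 4.11 to 36.4 ± 13.1 CPM (adjusted p = 0.15 in edgeR). Among 20 genes of a disease-associated astrocyte list C4b was called, 7 were higher and 1 lower at an unadjusted p under 0.05, and the median was 0.21. Ggta1, a sugar transferase on both this list and the A1-type list, went from 35.0 ± 4.46 to 57.1 ± 3.28 CPM without overlap between groups (edgeR adjusted p = 0.11). Of 8 tested A1-type genes none was called, with a median of 0.26 and 4 genes on each side of 0. Of 3 tested A2-type genes none was called, all 3 with negative values. The 13 tested genes of intermediate filaments and the cytoskeleton had a median of 0.50, with 12 positive values and none called.

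The pathway that carries cytokine signals to the astrocyte nucleus runs through the kinase JAK and the transcription factor STAT3. Sbno2, a co-regulator induced downstream of STAT3, was at 72.6, 91.6, 135, 86.4 and 74.8 CPM in PS2APP and at 44.7, 45.6, 31.2, 41.1 and 31.4 CPM in non-Tg libraries. No library of either group reached the other. Its log2 change was 1.25 ± 0.21 (SE, adjusted p = 0.015 in edgeR), kept in 9 of the 10 fits that left out 1 library. Stat3 went from 62.7 ± 13.2 to 103 ± 17.2 CPM and Osmr, the oncostatin M receptor upstream of it, from 38.6 ± 7.07 to 59.9 ± 21.1 CPM. Neither passed (edgeR adjusted p = 0.11 and 0.2). In all, 16 genes of a JAK-STAT3 and NF-kB list were tested, with a median of 0.59. Of these 1 was called and 14 had positive values (0.185% and 50.6% over all genes).

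Genes of antigen presentation and of the interferon response formed the next group. Nlrc5 (chromosome 8, 94434335 to 94527272), the transactivator that switches on MHC class I genes, was at 25.0, 67.5, 34.6, 37.3 and 32.7 CPM in PS2APP and at 13.6, 11.5, 10.1, 6.89 and 21.2 CPM in non-Tg libraries. PS2APP replicate 2 was far above the rest, and the lowest PS2APP library was still above the highest non-Tg library. Without replicates 2 and 3 the call was lost (adjusted p = 0.17 in edgeR). The log2 change was 1.64 ± 0.32 (SE, adjusted p = 0.039 in edgeR). B2m (chromosome 2, 122147687 to 122153082), the light chain of MHC class I, was at 32.2, 30.8, 24.6, 22.3 and 24.5 CPM in PS2APP and at 7.47, 8.08, 12.3, 7.41 and 15.1 CPM in non-Tg libraries. The groups were again apart, with a log2 change of 1.42 ± 0.28 (SE, adjusted p = 0.041 in edgeR). Of 8 tested genes of class I presentation these 2 were called (0.185% over all genes), and the median was 0.37. Tap1, which moves peptides into the endoplasmic reticulum, went from 9 ± 2.47 to 15.2 ± 3.51 CPM (adjusted p = 0.23 in edgeR).

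B2m lay close to the limit of the myeloid-enriched set, at 17.1 times the astrocyte level in non-Tg myeloid cells. PS2APP astrocyte libraries held 11.6% of its PS2APP myeloid level, above the median of 3.85% over the tested genes of the set and within their range. Nlrc5 was 3.28 times higher in non-Tg myeloid cells and stood at 27.4% of the PS2APP myeloid level. The part of myeloid RNA in either difference was not tested. The effect of PS2APP on B2m was larger in astrocytes than in neurons, by 1.84 on the log2 scale (interaction, edgeR adjusted p = 0.026).

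Among 24 tested interferon response genes, Gbp3 and Rnf213 were called, 12 were higher and none lower at an unadjusted p under 0.05, and 22 had positive values. The shares over all genes were 0.185% called, 10.2% higher, 7.00% lower and 50.6% positive. The median was 0.64. Gbp3 (chromosome 3, 142560016 to 142573213), an interferon-induced guanylate-binding protein, was at 23.5, 42.8, 29.8, 34.8 and 29.6 CPM in PS2APP and at 13, 8.94, 10.4, 10.0 and 19.3 CPM in non-Tg libraries. The groups did not overlap, and the log2 change was 1.38 ± 0.27 (SE, adjusted p = 0.041 in edgeR). Rnf213, a large ubiquitin ligase with a role in defence against infection, was at 378, 427, 435, 445 and 557 CPM in PS2APP and at 297, 261, 194, 223 and 284 CPM in non-Tg libraries. This was a smaller and more even difference, with a log2 change of 0.83 ± 0.16 (edgeR adjusted p = 0.041). Stat2 (chromosome 10, 128270498 to 128292853), which carries the type I interferon signal to the nucleus, was at 138, 184, 170, 153 and 119 CPM against 97.5, 99.9, 76.4, 102 and 102 CPM. It had no overlap and a log2 change of 0.67 ± 0.17 that missed the threshold in edgeR (adjusted p = 0.097) and passed in DESeq2 (adjusted p = 0.011). The calls of Nlrc5, B2m, Gbp3 and Rnf213 were kept in 5, 3, 4 and 3 of the 10 fits that left out 1 library. Without non-Tg replicate 2, each of the 4 had an edgeR adjusted p of 0.11.

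The upstream sequences of 3 of these genes are shown because each holds the core of an interferon-stimulated response element, a site through which interferon signals act on genes. They come from RefSeq on GRCm38.p6, are written 5′ to 3′ on the gene's strand up to the base before the annotated gene, and capitals mark the letters searched on both strands: GAAA, any 2 bases, GAAA, or in reverse complement TTTC, any 2 bases, TTTC.
B2m, chr2:122147437-122147686, + strand: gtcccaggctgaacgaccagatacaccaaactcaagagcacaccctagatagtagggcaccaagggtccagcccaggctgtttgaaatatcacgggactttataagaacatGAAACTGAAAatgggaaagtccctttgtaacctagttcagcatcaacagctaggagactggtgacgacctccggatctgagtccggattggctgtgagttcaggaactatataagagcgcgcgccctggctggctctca
Gbp3, chr3:142559794-142560015, + strand: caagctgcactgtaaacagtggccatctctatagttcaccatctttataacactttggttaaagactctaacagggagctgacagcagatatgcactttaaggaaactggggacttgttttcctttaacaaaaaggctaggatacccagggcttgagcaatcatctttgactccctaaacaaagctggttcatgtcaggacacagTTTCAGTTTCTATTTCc
Stat2, chr10:128270248-128270497, + strand: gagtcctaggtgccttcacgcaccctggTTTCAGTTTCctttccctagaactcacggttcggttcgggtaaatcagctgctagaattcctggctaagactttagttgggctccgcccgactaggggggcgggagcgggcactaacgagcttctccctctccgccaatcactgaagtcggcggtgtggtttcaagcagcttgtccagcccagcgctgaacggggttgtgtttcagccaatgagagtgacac
In Gbp3 2 matches overlap in 1 run of capitals. On either strand, 3.46% of the 27025 genes with a 250-base upstream window held the motif. Of the 24 tested interferon genes 19 had a window, and 10 of those held it: Gbp2, Gbp3, Gbp7, Ifit1, Ifit3, Igtp, Irgm1, Rsad2, Stat2 and Trim30a. Of 6 tested class I presentation genes with a window, B2m alone held it. Of the 26 called genes 13 had a window, and Arhgap6, B2m and Gbp3 held it. The letters of a STAT-type site (TTC, any 3 bases, GAA) were in the windows of 8.13% of all genes, 4 of the 19 interferon genes, and Sbno2 and Rasal3 among the 13 called genes. A match is a description of the sequence and not a sign of binding.

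**Figure D3:**
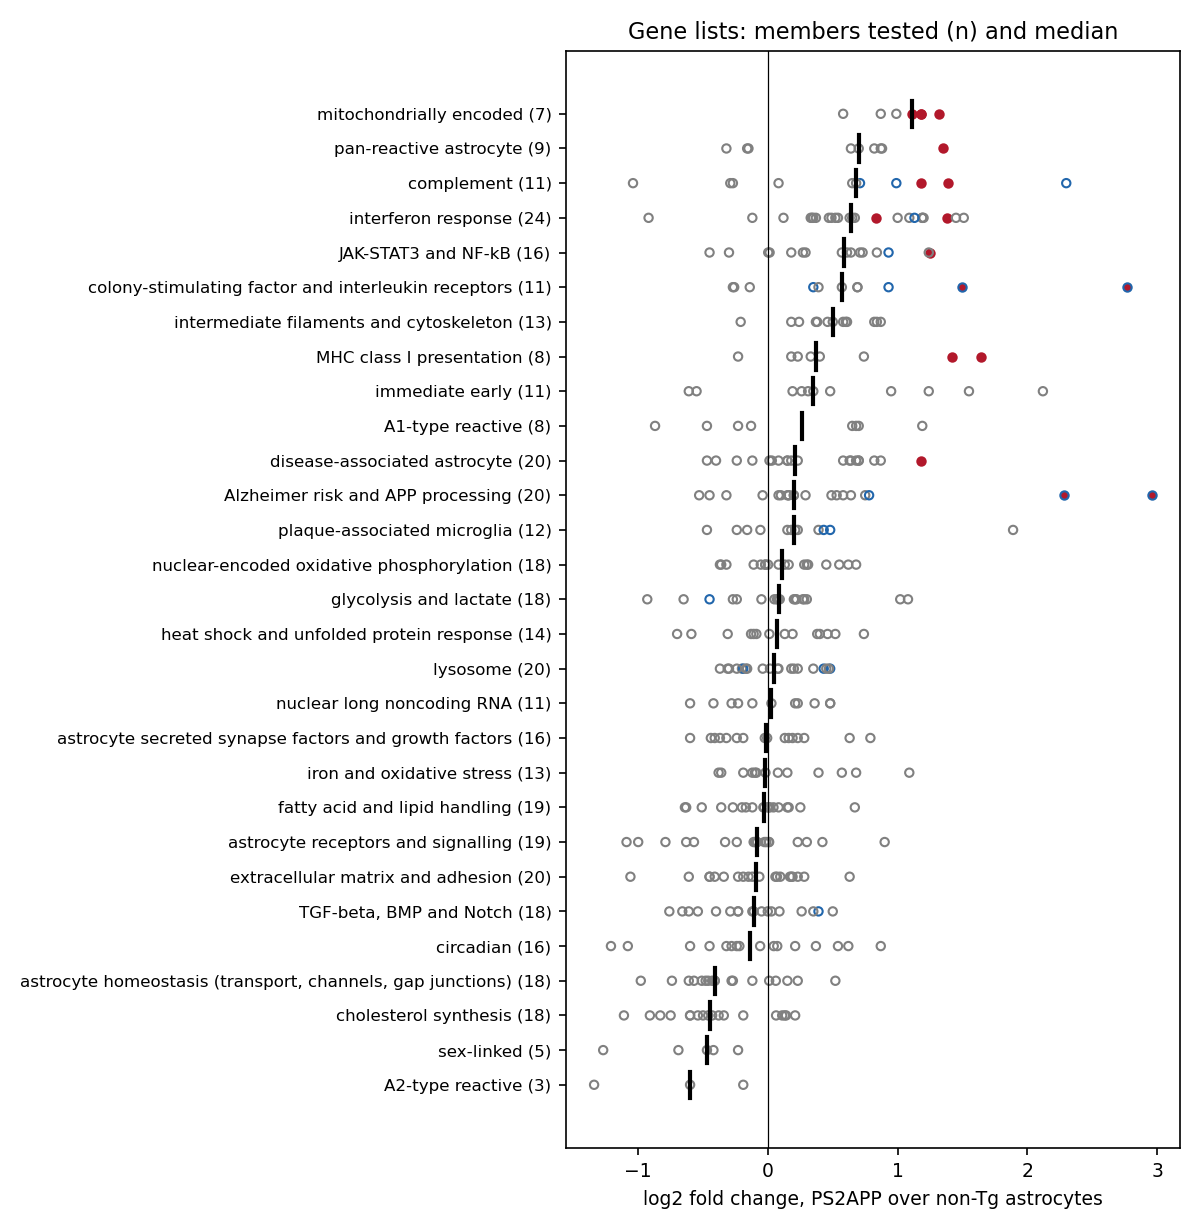
Log2 fold change of PS2APP over non-Tg astrocytes (x axis) for the tested members of 29 gene lists with at least 3 of them (y axis, number tested in brackets). Black bars are medians, filled red points genes past an adjusted p of 0.05, and blue outlines genes of the myeloid-enriched set; the medians of complement, interferon response and mitochondrial genes lie to the right of 0, and those of astrocyte homeostasis and cholesterol synthesis to the left.

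Of 13 mitochondrially encoded genes on a list 7 were tested. Of these, 4 were called higher and 7 had positive values, with a median of 1.11. Over all genes tested, 0.185% were called and 50.6% had positive values. ND4, a subunit of respiratory complex I, was at 6988, 10299, 12012, 6238 and 7683 CPM in PS2APP and at 5092, 3364, 3135, 3629 and 2123 CPM in non-Tg libraries. The groups did not overlap, and the log2 change was 1.32 ± 0.22 (SE, adjusted p = 0.015 in edgeR). CYTB, of complex III, ND1, of complex I, and COX1, of complex IV, had log2 changes of 1.18 ± 0.20, 1.18 ± 0.21 and 1.11 ± 0.19. ND4 was highest in the 2 libraries that stood apart, and without PS2APP replicates 2 and 3 none of the 4 passed (adjusted p between 0.08 and 0.098 in edgeR). The share of all counts from the mitochondrial genome was 6.91 ± 1.14% in PS2APP and 3.58 ± 0.866% in non-Tg libraries, with the lowest PS2APP library at 5.6% and the highest non-Tg library at 4.74% (exact permutation, two-sided, p = 0.00794, the smallest that 5 against 5 can give, or 0.037 adjusted for 14 measures). The 14 include the sum over the myeloid-enriched set, which its choice tilts upward and which makes this adjusted p smaller. The share does not depend on the scaling, and with raw library sizes its exact p was the same. Its adjusted p was then 0.0556 (exact permutation), since other measures of the 14 changed. It is therefore not read as a call. Of 18 tested nuclear-encoded subunits of oxidative phosphorylation none was called, and their median was 0.11. In a fit with the share as a covariate 2 genes were called. C4b then had a log2 change of 0.72, Aspg 1.05 and B2m 1.80 (edgeR adjusted p = 0.95 each). Since the share did not overlap between genotypes, its part in these results and that of genotype cannot be told apart.

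The remaining called genes outside the myeloid-enriched set were of mixed kind. Lrrfip1, which binds nucleic acids, went from 35.4 ± 6.93 to 78.4 ± 21.3 CPM, with a log2 change of 1.14 ± 0.22 (edgeR adjusted p = 0.035). Dock6 went from 82.8 ± 19.6 to 182 ± 60.3 CPM, with 1.13 ± 0.22 (edgeR adjusted p = 0.041). Bcas1, known from maturing oligodendrocytes, went from 59.0 ± 22.5 to 143 ± 41.1 CPM, with 1.27 ± 0.25 (edgeR adjusted p = 0.041). All 3 had no overlap between groups. Without PS2APP replicate 3, Dock6 and Bcas1 missed the threshold (edgeR adjusted p = 0.073 and 0.074). Beside Bcas1, the 10 oligodendrocyte markers came to 1388 ± 370 CPM in PS2APP and 884 ± 168 CPM in non-Tg libraries, with overlap (exact permutation, two-sided, p = 0.0317, or 0.111 adjusted), and Mbp, of myelin, had a log2 change of 1.0 ± 0.25 (edgeR adjusted p = 0.097). The part of oligodendrocyte RNA in the call of Bcas1 was not tested.

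Thy1, a surface protein of neurons whose promoter drives one of the transgenes, was at 85.7, 58.2, 106, 46.2 and 79.2 CPM in PS2APP and at 24.0, 25.5, 26.2, 41.3 and 27.2 CPM in non-Tg astrocyte libraries. Its log2 change was 1.37 ± 0.24 (SE, adjusted p = 0.016 in edgeR). It was also higher in PS2APP myeloid libraries (2.06, edgeR adjusted p = 3.5e-05), and the difference between the effects was -0.71 (edgeR adjusted p = 0.45). In neurons it was at 157 to 296 CPM in PS2APP and 69.2 to 130 CPM in non-Tg libraries, scaled over all 30 libraries, with a log2 change of 1.32 (edgeR adjusted p = 0.051). Over its 13 genes the neuron marker list came to 1763 ± 457 CPM in PS2APP and 1106 ± 298 CPM in non-Tg astrocyte libraries (exact permutation, two-sided, p = 0.0397, or 0.111 adjusted), with Camk2a, a kinase of excitatory neurons, at a log2 change of 1.09 ± 0.25 (edgeR adjusted p = 0.078). The part of neuronal RNA and of transgene transcripts in the counts of Thy1 was not tested. App went from 78.8 ± 17.3 to 114 ± 43.1 CPM and Prnp was at 76.4 ± 13.6 CPM in PS2APP libraries, with a log2 change of -0.40 (edgeR adjusted p = 0.27 and 0.29). Psen2 was at 34.6 CPM in PS2APP replicate 3 and between 1.03 and 6.96 CPM in the other 4, against 6.19 ± 1.66 CPM in non-Tg libraries. Its log2 change of 0.75 became -0.46 without PS2APP replicate 3. Human transgene reads were not counted apart, so these mouse genes do not check the labels.

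Arhgap6, a GTPase-activating protein on the X chromosome, was the call that split the PS2APP libraries. It was at 72.9, 199, 198 and 211 CPM in PS2APP replicates 1, 2, 4 and 5 and at 3.65 CPM in replicate 3, against 6.50 to 14 CPM in non-Tg libraries. The identifier ID102642598, without a symbol and chosen after its values were seen, was low in the same library, at 17.2, 18.7, 83.4 and 92.7 CPM in replicates 1, 2, 4 and 5 and 0.304 CPM in replicate 3, against 0.39 to 2.4 CPM in non-Tg libraries. Their log2 changes were 3.89 ± 0.61 and 5.04 ± 0.85 (SE, adjusted p = 0.0083 and 0.015 in edgeR). PS2APP replicate 3 lay below the non-Tg range for both while it had the highest C4b, Aspg and Thy1 of the 10 libraries. Scaled over all 30 libraries, Arhgap6 was also low in 1 of 5 PS2APP myeloid libraries (9.59 CPM, the rest 316 to 551 CPM) and in 1 of 5 PS2APP neuron libraries (53.2 CPM, the rest 251 to 786 CPM). Without PS2APP replicate 3, 29 genes were called in astrocytes.

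Genes of astrocyte housekeeping had a negative median, and none of them passed with all 10 libraries. Of 18 tested genes of transport, channels and gap junctions 7 were lower and 1 higher at an unadjusted p under 0.05 (7.00% and 10.2% over all genes), and the median was -0.41. Aqp4, the water channel of astrocyte endfeet, was at 296, 154, 96.9, 239 and 273 CPM in PS2APP and at 276, 394, 513, 405 and 504 CPM in non-Tg libraries. Non-Tg replicate 1 lay inside the PS2APP range and the other 4 above it. The log2 change was -0.98 ± 0.25 (SE, adjusted p = 0.11, and 0.047 without non-Tg replicate 1 in edgeR). Slc1a3, which encodes the glutamate transporter GLAST, was at 574, 516, 338, 493 and 526 CPM against 452, 772, 824, 776 and 909 CPM. It showed the same order, with -0.61 ± 0.19 (edgeR adjusted p = 0.16, and 0.04 without non-Tg replicate 1). Slc6a11, a transporter of the inhibitory transmitter GABA, went from 410 ± 62.1 to 246 ± 72.8 CPM without overlap (edgeR adjusted p = 0.13). Slc1a2, which encodes the main glutamate transporter GLT-1, went from 9226 ± 2529 to 6218 ± 1377 CPM with overlap (edgeR adjusted p = 0.19).

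Without non-Tg replicate 1, 21 genes were called lower, 0.147% of the 14273 genes then tested. They included Slc35a3, a Golgi transporter of nucleotide sugars (-1.68, edgeR adjusted p = 0.016), Tnfaip2 (-1.75, edgeR adjusted p = 0.017), the tetraspanin Tspan7 (-0.78, edgeR adjusted p = 0.044) and the activin receptor Acvr2a (-1.52, edgeR adjusted p = 0.049). With all 10 libraries, Slc35a3 was at 13.1, 11.7, 8.51, 22.1 and 23.1 CPM in PS2APP and at 22.2, 40.2, 39.5, 59.0 and 64.3 CPM in the non-Tg group (edgeR adjusted p = 0.057). Non-Tg replicate 1 was again the one library inside the PS2APP range. That library also stood apart in Xist, the RNA that silences an X chromosome, at 50.9 CPM against 2.99 to 15.5 CPM in the other 9. Other genes of smallest p in the lower direction were Hbp1, a transcriptional repressor, from 68.2 ± 9.16 to 35.1 ± 9.81 CPM (adjusted p = 0.078 in edgeR), and Slc30a10, a manganese exporter, from 148 ± 24.8 to 89.0 ± 13.1 CPM (adjusted p = 0.085 in edgeR), both without overlap. Over all genes, the groups did not overlap for 243 lower in PS2APP (1.73%).

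Cholesterol synthesis had the lowest median of the lists with at least 10 tested genes. Of 18 tested, 8 were lower and none higher at an unadjusted p under 0.05 (7.00% and 10.2% over all genes), and the median was -0.45. Insig1, which holds the sterol sensor in the endoplasmic reticulum and is itself a target of that sensor's pathway, was at 26.3, 9.70, 8.2, 19.5 and 12.4 CPM in PS2APP and at 29.2, 31.1, 31.2, 41.6 and 31.6 CPM in non-Tg libraries. Each PS2APP library was lower than each non-Tg library, and the log2 change of -1.11 ± 0.30 did not pass (edgeR adjusted p = 0.12). Dhcr7, the last enzyme of the pathway, went from 38.7 ± 15.6 to 20.7 ± 4.03 CPM without overlap, and Cyp51, a sterol demethylase, from 46.0 ± 9.23 to 27.5 ± 13.5 CPM (adjusted p = 0.14 and 0.23 in edgeR).

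The myeloid-enriched set held 778 identifiers, of which 164 passed the filter on low counts and 614 did not. In the non-Tg astrocyte level, which is the denominator of the choice and also enters the contrast, a chance low value raises both, so the set is tilted towards higher fold changes, and a member that passed the filter through its PS2APP libraries alone had to be higher there. The members that passed are therefore described without a test over them. Of the 164, 7 were called (4.27%, against 0.137% outside the set), 153 had positive values and 11 negative ones, with a median of 0.90. At the limit of the choice, Entpd1, at a ratio of 20.0, had a log2 change of 0.38, and Fscn1, at 19.8, had 0.97, both not called; they are given for the limit alone.

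The 7 called genes were Abi3, Csf3r, Csf1r, Rasal3, Myo1f, Fcrls and Inpp5d, all higher. Abi3, an actin regulator and Alzheimer's disease risk gene of microglia, was at 35.7, 18.4, 48.9, 28 and 25.1 CPM in PS2APP and at 1.04, 2.58, 8.01, 5.72 and 2.93 CPM in non-Tg astrocyte libraries. Its log2 change was 2.96 ± 0.42 (SE, adjusted p = 0.005 in edgeR). It went from 0.33% to 2.67% of the myeloid level of the same genotype. Csf1r, the receptor that microglia need to survive, was at 31.6, 26.8, 29.2, 24.3 and 24.5 CPM in PS2APP and at 9.04, 9.29, 12.8, 10.3 and 6.91 CPM in non-Tg libraries. The libraries of each genotype lay close together, and the log2 change was 1.5 ± 0.25 (edgeR adjusted p = 0.015). Csf3r, the receptor for granulocyte colony-stimulating factor, was at 18.5, 25.7, 82.0, 22.1 and 22.0 CPM against 4.96 ± 1.20 CPM in non-Tg libraries, with PS2APP replicate 3 far above the rest (log2 change 2.77 ± 0.40, edgeR adjusted p = 0.005, and 0.0014 without that library). Abi3 and Csf3r were called in all 10 fits that left out 1 library.

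The other 4 were lower in level. Rasal3, a Ras GTPase-activating protein of blood cells, was at 64.4 CPM in PS2APP replicate 3 and 11.0 to 17.1 CPM in the rest, against 3.37 ± 1.79 CPM in non-Tg libraries. Myo1f, a motor protein of immune cells, went from 1.40 ± 0.295 to 8.79 ± 3.57 CPM. Fcrls, an Fc receptor-like gene of microglia, went from 1.11 ± 0.637 to 8.91 ± 5.01 CPM. Inpp5d, a phosphatase that restrains immune receptor signalling, went from 3.24 ± 1.23 to 15.7 ± 9.85 CPM. The log2 changes were 2.87 ± 0.51, 2.64 ± 0.47, 2.98 ± 0.56 and 2.28 ± 0.45 (edgeR adjusted p = 0.018, 0.02, 0.031 and 0.043). Without PS2APP replicate 3, Rasal3 had a log2 change of 2.13 (edgeR adjusted p = 0.03), and Fcrls and Inpp5d lost their calls (edgeR adjusted p = 0.067 and 0.098). Without replicates 2 and 3 together Rasal3 lost its call as well (edgeR adjusted p = 0.099). Without non-Tg replicate 2, Csf1r, Rasal3, Myo1f, Fcrls and Inpp5d did (edgeR adjusted p between 0.063 and 0.11).

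The sum over the whole set, tested members or not, carries the same tilt from the choice, so its p is not given. The 778 identifiers summed to 1256, 1262, 1507, 1455 and 1206 CPM in non-Tg replicates 1 to 5 and to 2399, 2565, 3227, 2334 and 1967 CPM in PS2APP replicates 1 to 5. The lowest PS2APP sum lay above the highest non-Tg sum. The non-Tg sum averaged 1.43% of that in non-Tg myeloid libraries, and the PS2APP sum 2.89% of that in PS2APP myeloid libraries. The 12 microglia markers came to 115 ± 26.9 CPM in PS2APP and 57.9 ± 14.1 CPM in non-Tg astrocyte libraries, also without overlap (exact permutation p = 0.00794, or 0.037 adjusted, and 0.148 adjusted with raw library sizes), which was 1.63% and 0.651% of the myeloid sums. The tilted sum over the set counted among the adjusted measures and makes the value of 0.037 smaller, so it is not read as a call. All 12 had counts in some astrocyte library and 7 in all 10. Of the 6 markers of neutrophils and monocytes, S100a8, Ly6g, Ly6c2 and Plac8 had no count in any of the 10 libraries, while S100a9 and Ccr2 had some. The 6 summed to 0.896 ± 0.917 CPM in PS2APP and 0.5 ± 0.317 CPM in non-Tg libraries, with overlap. With the sum of the 12 microglia markers as a covariate edgeR called 0 genes, against 1652 at an unadjusted p under 0.05, and the log2 change was 1.07 for C4b, 1.38 for Aspg, 2.07 for Abi3 and 1.33 for Csf1r. In these bulk libraries, more myeloid material in the sort and more such RNA in each astrocyte cannot be told apart.

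**Figure D4:**
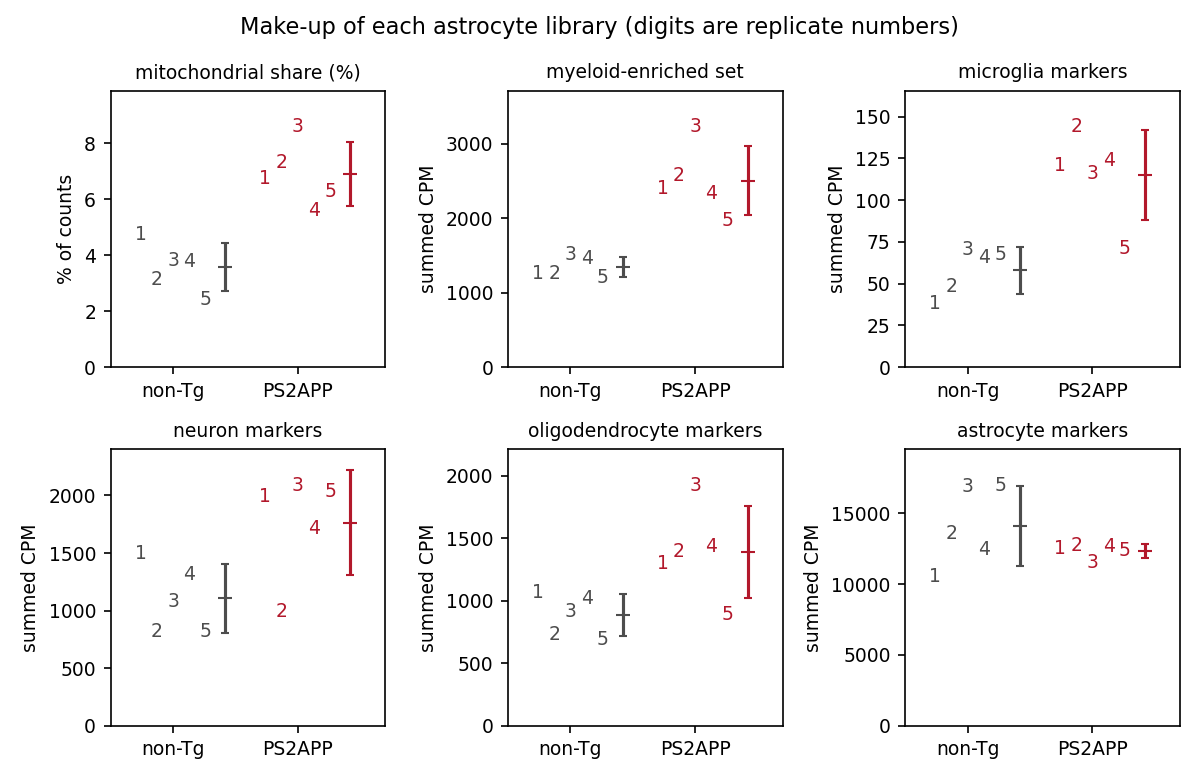
Summed levels of marker genes in CPM, and the mitochondrial share in % of counts (y axes, from 0), in each astrocyte library, non-Tg in grey and PS2APP in red; digits are replicate numbers and bars the mean ± SD of 5 libraries. The mitochondrial share, the myeloid-enriched set and the microglia markers do not overlap between genotypes, while neuron, oligodendrocyte and astrocyte markers do.

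The share of the myeloid level varied over the set. The 164 tested genes stood at a median of 1.83% of the myeloid level in non-Tg (range 0.163% to 5.0%) and 3.85% in PS2APP astrocytes (range 0.626% to 14.6%). The choice caps the non-Tg share at 5.0% and sets no cap in PS2APP. The shares are therefore tilted towards higher values in PS2APP, and no difference is read from the 2 medians. Of 12 microglia markers 9 were tested, all in the set and under its tilt, and 8 of the 9 had positive log2 changes and 1 a negative one. At an unadjusted p under 0.05, 5 of the 9 were higher and none lower (10.2% and 7.00% over all genes). Because of the tilt, the count of 5 is not read as a result. Tmem119, a surface protein that marks microglia, was chosen after its values were seen. It was at 2.72 ± 2.66 CPM in PS2APP and 2.69 ± 1.42 CPM in non-Tg astrocytes (adjusted p = 0.99 in edgeR). Its log2 change ran from -0.49 to 0.33 with 1 library left out, so no difference between microglia genes is read from it. C1qb, a chain of complement C1q made by microglia, was at 8.14, 10.4, 9.72, 9.46 and 2.76 CPM against 0.695, 0.688, 2.40, 2.34 and 2.1 CPM (log2 change 2.30 ± 0.53, edgeR adjusted p = 0.078).

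**Figure D5:**
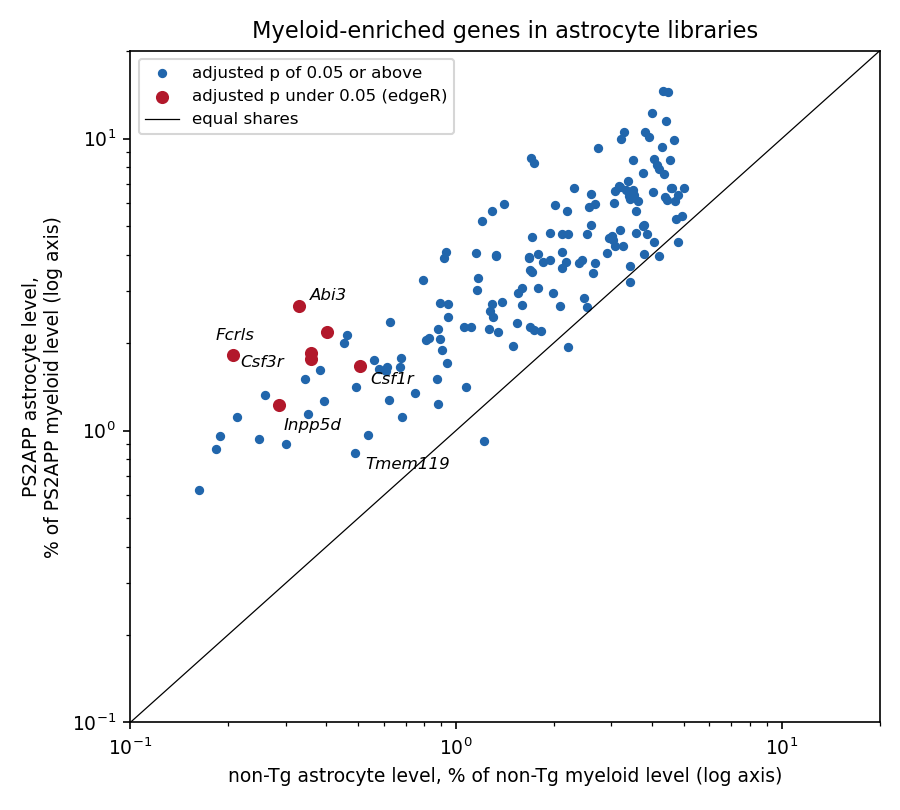
Level in astrocyte libraries as a percentage of the level in myeloid libraries of the same genotype for the 164 tested genes of the myeloid-enriched set, non-Tg on the x axis and PS2APP on the y axis (both log axes). Red points are the 7 called genes, and the line marks equal shares. Most genes lie above it, and the called genes lie between 0.206% and 0.506% on the x axis. The choice of the set caps the x axis values at 5% and leaves the y axis values free, which tilts genes above the line.

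The effect of PS2APP was then compared between populations in 1 edgeR fit of all 30 libraries. It differed between astrocytes and myeloid cells for 137 of 18101 genes (0.757%), with 84 higher in astrocytes (0.464%) and 53 lower (0.293%). No count over the myeloid-enriched set is read from this test, since the low non-Tg astrocyte level that chose its members enters the difference. In the set, the median log2 change was 0.90 in astrocytes and -0.13 in myeloid cells. The non-Tg myeloid level, the numerator of the choice, also enters the myeloid change, and a chance high value there lowers that change. Both medians carry a tilt and are not compared. Abi3 had an effect of -0.083 in myeloid cells and a difference of 3.04 (edgeR adjusted p = 3.5e-05). Csf1r had -0.25 and a difference of 1.73 (edgeR adjusted p = 3.5e-04), and Fcrls -0.15 and 3.09 (edgeR adjusted p = 2.8e-04). None of the 3 passed the test within myeloid cells (edgeR adjusted p = 0.88, 0.41 and 0.75). The tilts on the astrocyte and on the myeloid side apply to these 3 differences.

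Gpnmb, a glycoprotein of lipid-laden phagocytes, had an effect of 6.55 in myeloid cells and was at 26.7 ± 5.58 CPM in PS2APP astrocytes, against 27.8 ± 7.87 CPM in those of non-Tg mice, a difference of -6.62 (edgeR adjusted p = 6.0e-09). Cst7, a protease inhibitor, had 5.09 in myeloid cells and stood at 1.02 ± 0.262 and 1.04 ± 0.665 CPM in non-Tg and PS2APP astrocyte libraries, scaled over all 30 libraries and near the level of 3 counts, a difference of -5.01 (edgeR adjusted p = 3.5e-05). Of 12 tested genes of the plaque-associated microglia list none was called in astrocytes, 8 had positive values, and the median was 0.20. At an unadjusted p under 0.05, 3 were higher and none lower (10.2% and 7.00% over all genes). Csf1, a growth factor for microglia, went from 98.1 ± 17.9 to 128 ± 23.8 CPM in astrocytes and had a difference of -1.40 (edgeR adjusted p = 0.013). Gfap had a smaller effect in astrocytes than in myeloid libraries, where its non-Tg level was a small part of that in astrocytes, by -1.88 (edgeR adjusted p = 0.0013). For C4b the difference was 0.098 (edgeR adjusted p = 0.95).

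Between astrocytes and neurons the effect differed for 6 genes (0.0331%), all higher in astrocytes and 5 of them in the myeloid-enriched set. The sixth was B2m. The 5 were Abi3, Csf3r, Myo1f, Blnk and Ly9, with Blnk chosen after its values were seen. Abi3, Csf3r and Myo1f differed by 2.57, 2.37 and 2.45 (edgeR adjusted p = 0.0078, 0.026 and 0.015), and Blnk by 2.42 (edgeR adjusted p = 0.047). Ly9 had no count in any non-Tg astrocyte library and 1.04 to 6.59 CPM in PS2APP ones, so its fitted difference (edgeR adjusted p = 0.022) gives no size. The tilt of the choice applies to these 5. Leaving out 1 astrocyte library gave 1 to 11 such genes. For C4b the difference was 0.37 and for Aspg 1.35 (edgeR adjusted p of 1 and 0.99), which does not show that the effects were alike.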

How the data were processed

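RNA sequencing of sorted brain cells was deposited as 1 table per library. The deposited count of each gene model is of uniquely aligning reads, per the file headers. The authors' second value is a size-factor-adjusted RPKM, per the file headers, and was not tested. GSNAP and GRCm38 are named per the submitters' processing notes, with versions not given in the sources used here. Of 36528 identifiers, 31049 matched a symbol in RefSeq's tables, with 97.2% of the astrocyte counts.

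Libraries were grouped by source label. Genes passing filterByExpr were tested in edgeR 4.0.16 (R 4.3.3) with TMM factors, the quasi-likelihood test, Benjamini-Hochberg adjustment and a threshold of 0.05. CPM, the count scaled to library size, uses the same factors. Differences between populations are interaction terms in a fit of all 30 libraries. Summed markers were compared by a two-sided exact permutation test over 252 splits, adjusted over 14 measures, which include the tilted sum over the myeloid-enriched set. The tests were tried on simulated counts first. Replicates of a genotype all differed by more than counting error (chi-square over its degrees of freedom at least 5.9).

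Alternatives were DESeq2 1.42.0, limma 3.58.1 (voom with quality weights), other scalings and filters, covariates, and leaving out each library. Leaving out PS2APP replicates 2 and 3 together and the Xist covariate were added after the data were seen. Genes named were the targeted and marker genes, all called genes with a symbol, and those of smallest p in each direction, each list, the myeloid-enriched set and each difference between populations. The members and lists were chosen with earlier results of these data known. Promoter windows are RefSeq's on GRCm38.p6.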

Additional observations from a re-analysis of the deposited data

Results flagged for a closer look

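In 172 groups of 5 libraries, 16 had 1 library far from the other 4, where chance gives about 1 in 20. The groups share the same libraries and are not independent, so the count was not tested against that rate. PS2APP replicate 3 was far out in 6 of them: high for Psen2 (34.6 CPM), Csf3r (82.0 CPM), Rasal3 (64.4 CPM), Fos (44.4 CPM) and Snap25 (361 CPM), and low for Tspan7 (116 CPM). PS2APP replicate 2 was high for Nlrc5 (67.5 CPM) and for the summed border macrophage markers (20.7 CPM). Among non-Tg libraries, replicate 1 was high for Xist (50.9 CPM) and the summed ependymal markers (34.6 CPM). Replicate 4 was high for Psen2 (9.09 CPM), Thy1 (41.3 CPM) and Insig1 (41.6 CPM). Replicate 5 was high for Stat3 (85.9 CPM) and Timp3 (216 CPM), and replicate 3 was low for Stat2 (76.4 CPM).

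The effect of PS2APP differed between astrocytes and another population for 17 of the named genes by edgeR's interaction test. Part of them were named for their small p in this same test, so the count of 17 is no result. Over all 18101 genes, 0.757% differed from myeloid cells and 0.0331% from neurons. Against myeloid cells, the effect in astrocytes was larger on the log2 scale for Ggta1 (1.61), Abi3 (3.04), Csf3r (2.27), Csf1r (1.73), Rasal3 (2.37), Myo1f (2.44), Fcrls (3.09), Inpp5d (2.09), C1qb (2.36) and Blnk (2.29). It was also called larger for Csf2rb and Ly9, which were at 0 to 0.599 CPM and at 0 in the non-Tg astrocyte libraries. Their fitted values of 3.77 and 6.56 depend on the prior count and give no size and no bound. The difference was negative for Gfap (-1.88), Csf1 (-1.40), Gpnmb (-6.62) and Cst7 (-5.01). Against neurons, the effect in astrocytes was larger for B2m (1.84), Abi3 (2.57), Csf3r (2.37), Myo1f (2.45) and Blnk (2.42), and was called larger for Ly9, whose fitted 7.05 again gives no size. Of these genes, Abi3, Csf3r, Csf1r, Rasal3, Myo1f, Fcrls, Inpp5d, C1qb, Csf2rb, Blnk and Ly9 belong to the myeloid-enriched set, whose choice tilts the difference upward.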

How the results depend on the processing

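The count of 26 calls (19 outside and 7 inside the myeloid-enriched set) moved with many choices. In that order it was 327, 293 and 34 with DESeq2, 274, 250 and 24 with limma, 295, 188 and 107 with all 30 libraries in 1 fit, 514, 473 and 41 with no filter on low counts, 109, 93 and 16 at an adjusted p of 0.10, 7, 5 and 2 with Xist as a covariate, 2, 2 and 0 with the mitochondrial share, and 15, 12 and 3 without PS2APP replicates 2 and 3 together. With microglia or neuron markers as a covariate it was 0, 0 and 0, with 1652 and 1511 genes at an unadjusted p under 0.05 in edgeR. Leaving out 1 library gave 8 to 125, 6 to 115 and 2 to 10 calls, and 1 to 11 genes whose effect differed from neurons: 1 without non-Tg replicate 2 or 4, 11 without PS2APP replicate 5. Without 1 library the differences were 2.9 to 3.65 percentage points for the mitochondrial share, 979 to 1294 CPM for the myeloid-enriched set and 50.1 to 68.4 CPM for microglia markers, and with a smallest exact p of 0.0159 neither the share nor the markers could pass after adjustment. Differences that could turn sign were -4.41 to 38.5 CPM for oligodendrocyte precursors, -0.0518 to 10.5 for endothelial and -0.919 to 5.4 for ependymal markers. With raw library sizes the first 3 were 3.32, 894 and 45.0, and precursors, mural and ependymal markers were -26.7, -7.92 and -0.842. The share and the microglia markers were then no longer past the threshold after adjustment. The share itself and its exact p were unchanged, and its adjusted p moved only through the other measures.

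Log2 fold changes that turned sign with the mitochondrial share as covariate were App -0.80, Psen2 -1.89, Prnp 0.40, Vim -0.13, Aqp4 0.39, Slc1a3 0.26, Slc1a2 0.45, Slc35a3 0.17, Tnfaip2 0.045, Tspan7 0.006, Cyp51 0.34, Fth1 -0.26, Mbp -0.35, Snap25 -0.44 and Igf1 -0.21. With microglia markers they were Psen2 -0.13, Xist 0.69, Tmem119 -2.38 and Gpnmb 0.35, with neuron markers Psen2 -0.26, with limma Psen2 -0.26, Tmem119 -0.38 and Gpnmb 0.079, with upper-quartile factors Tmem119 -0.051, and without PS2APP replicates 2 and 3 together Psen2 -0.35 and Tmem119 -0.21. Leaving out 1 library gave -0.46 to 1.04 for Psen2, -0.49 to 0.33 for Tmem119 and -0.19 to 0.075 for Gpnmb. None of these genes passed with all 10 libraries, and the cause was not tested. Of 30 list medians, 18 moved by more than their spread over libraries with the mitochondrial share as covariate, 11 with microglia markers, 5 with neuron markers, 2 with upper-quartile factors and 3 without PS2APP replicates 2 and 3 together, and none with DESeq2, limma, RLE factors, all 30 libraries in 1 fit or 1 library left out. The median of all genes was 0.0066 and shifted by -0.18 with raw library sizes. No paired analysis was possible because the labels give no replicate numbers. Depth limits genes near 3 counts, or 0.456 to 1.05 CPM.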

Other observations

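Several groups outside the results above had values without a call. Of 16 circadian genes tested, 3 were higher and 3 lower at an unadjusted p under 0.05 (10.2% and 7.00% over all genes). Dbp, an output gene of the clock, was at 33.4 ± 11.9 CPM in PS2APP and 76.9 ± 44.1 CPM in non-Tg libraries (adjusted p = 0.12 in edgeR). Clock and Arntl, the activators of the cycle, had log2 fold changes of 0.54 and 0.62 (adjusted p = 0.16 each in edgeR). The labels used here give no time of day. Of 13 genes of iron and oxidative stress, with a median of -0.019, Fth1, the heavy chain of ferritin, had 1.09 ± 0.26 (adjusted p = 0.083 in edgeR). Mt1, a metallothionein, was at 84.7 ± 20.0 against 52.6 ± 7.96 CPM without overlap (adjusted p = 0.13 in edgeR). Gabbr2, a subunit of the GABA-B receptor, was at 64.2, 93.0, 133, 71.4 and 67.5 CPM in PS2APP and at 46.8, 45.7, 40.6, 51.7 and 44.2 CPM in non-Tg libraries, also without overlap (adjusted p = 0.078 in edgeR).

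Of 20 tested genes of extracellular matrix and adhesion 4 were lower and 1 higher at an unadjusted p under 0.05 (7.00% and 10.2% over all genes), and the median was -0.094. Ncan, a chondroitin sulfate proteoglycan, was at 652 ± 125 in PS2APP and 998 ± 95.6 CPM in non-Tg libraries (adjusted p = 0.12 in edgeR). Timp3, an inhibitor of metalloproteinases, was at 140 ± 17.9 and 191 ± 14 CPM (adjusted p = 0.16 in edgeR). Thbs4, a thrombospondin, lay the other way at 278 ± 58.9 and 179 ± 21.8 CPM (adjusted p = 0.12 in edgeR). None of the 3 overlapped between groups. Igf1, a growth factor, had a log2 fold change of 1.89 ± 0.60 at 5.06 ± 2.48 CPM in PS2APP libraries (adjusted p = 0.16 in edgeR).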
